A study of Mus musculus with 6 samples.

Results

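The genes described here are 10 transcripts of contractile smooth muscle cells and of pericytes, measured in whole mouse kidney with and without the orphan nuclear receptor ERRα. They were taken as a fixed list of gene names, chosen with earlier results of these data known. Every array probe set annotated to 1 of them was used, which gave 20 of 45037 probe sets and 10 of 18193 genes. RNA came from WT males (3 arrays) and ERRa KO males (3 arrays), all 2-3 months old, on a standard diet in a 12 h light-dark cycle. Both kidneys of a mouse were ground together, so every value mixes vessel wall, glomeruli, tubules and collecting system. The strain, the deleted part of the gene and whether the loss is limited to a cell type are not given in the labels. The labels call the replicates biological without saying that each is another animal, so the tests measure the spread between these 6 arrays.

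Smooth muscle contracts when calcium and calmodulin switch on myosin light chain kinase, which phosphorylates the regulatory light chain of smooth muscle myosin and lets the motor pull on actin filaments. Calponin and transgelin bind those filaments, and desmin ties the contractile apparatus to the rest of the cell. In the kidney these proteins mark the media of arteries and arterioles and the muscle coat of the pelvis, while pericytes, which sheathe the small vessels, and mesangial cells of the glomerulus carry the receptor PDGFRβ. Many of the genes are known targets of serum response factor and its partner myocardin, which act through a DNA element called the CArG box.

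Values are log2 RMA values (a microarray summary that corrects background, quantile normalizes the arrays and combines the probes of a probe set), and differences are ERRa KO minus WT on that scale, followed by limma's standard error (SE). A gene was represented by its brightest probe set. A gene was called when limma's p, adjusted by Benjamini-Hochberg over all 18193 genes, was under 0.05. Esrra, the targeted gene, read 9.43, 9.43 and 9.52 in the WT arrays and 6.66, 6.51 and 6.41 in the ERRa KO arrays (difference -2.93, adjusted p = 9.85e-06). Genotypes follow the sample-keyed series table. A separate table from the authors has the same values under exchanged genotype heads in its 6 value columns, while its fold change column follows the series table. In ERRa KO replicate 3, 10 of 12 liver markers read highest of the 6 arrays, with a list median 2.2 above the WT mean, against -0.13 and 0.08 in ERRa KO replicates 1 and 2. Values without that array are given beside the members' results and, for the other lists, together after them. Arrays correlated at 0.994 to 0.998 over all probe sets.

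None of the 10 genes was called, against 0.495% of all genes (90 of 18193). The differences leaned downward: 7 differences were negative and 3 positive, and their median was -0.20, beside 47.4% lower and a median of 0.01 over all genes. At an unadjusted p under 0.05, 4 of the 10 were lower and 0 higher, where 12.4% of all genes passed, 6.2% lower and 6.22% higher. Those 4 were Tagln, Mylk, Pdgfrb and Acta2. All 3 ERRa KO arrays lay below all 3 WT arrays for Tagln, Mylk and Pdgfrb, a pattern seen in 9.56% of all genes. The largest of these differences was 1.26-fold. The downward lean describes the values of these arrays and rests on no called gene. Because the 10 were chosen with earlier results of these data known, the shares over all genes are no test of the list. In whole kidney, fewer mural cells and less of a transcript per cell cannot be told apart.

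**Figure D1:**
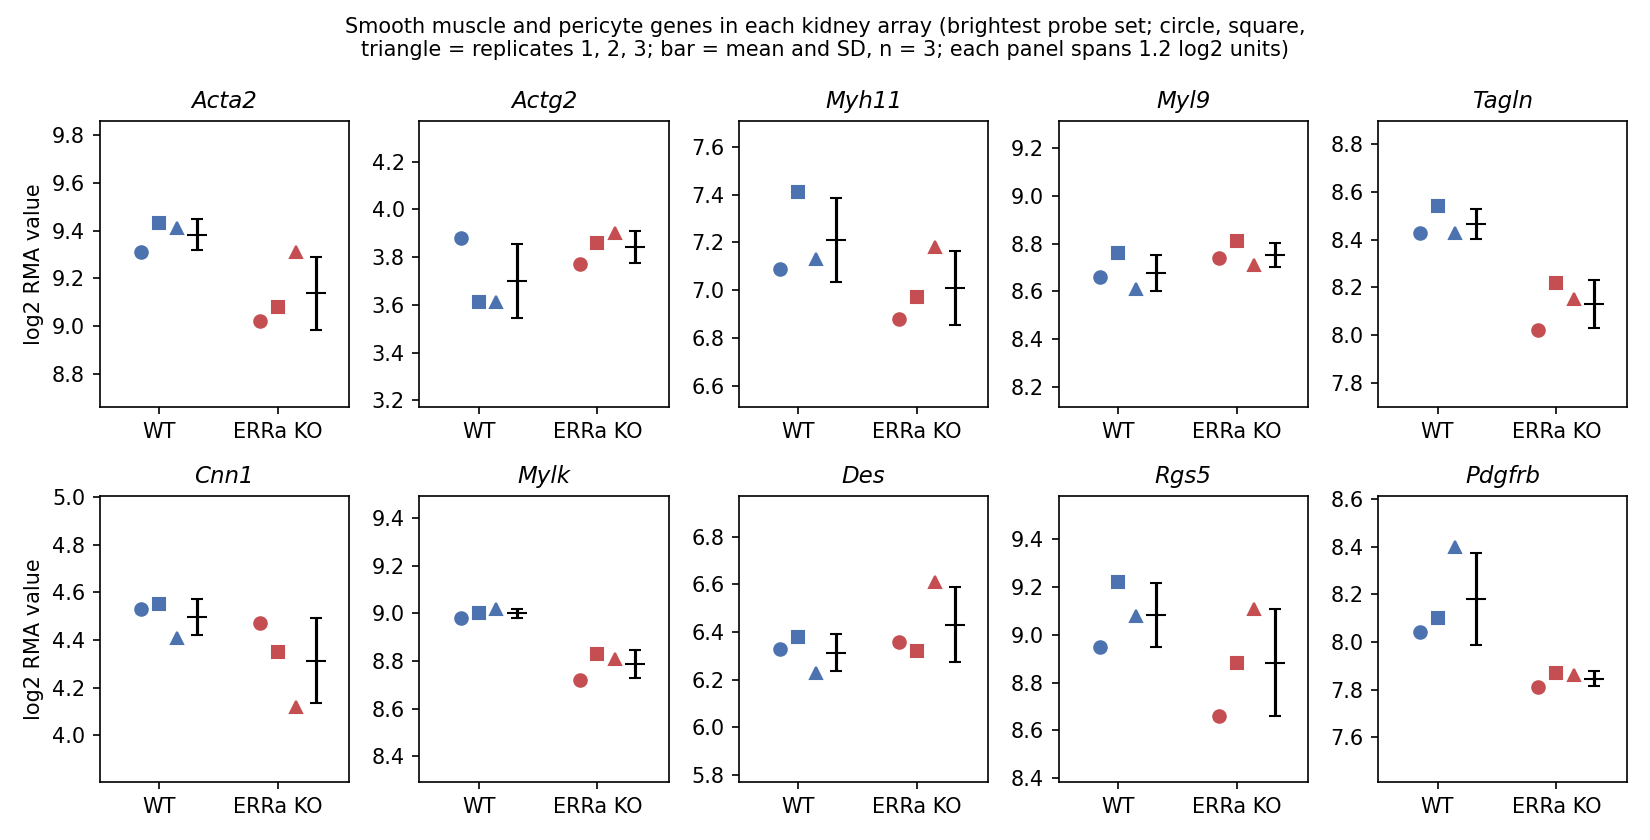
Log2 RMA value of each of the 10 genes (brightest probe set) in the 3 WT (blue) and 3 ERRa KO (red) arrays, with replicates 1, 2 and 3 as circle, square and triangle and the mean with its SD. The genotypes are apart for Tagln, Mylk and Pdgfrb and overlap for the others (Acta2 meets at 9.31).

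At the level of probe sets 0 of 20 were called, against 0.111% of 45037 (0.0466% lower), and 15 of 20 read lower with a median of -0.13, beside 49.1% lower and a median of 0.00 over all probe sets. Of the 20, 5 were lower and 0 higher at an unadjusted p under 0.05 (5.77% and 5.1% of all probe sets). All ERRa KO arrays were below all WT arrays in 5 (8.39%) and above them in 0 (8.11%). The counts of 5 each include 2 probe sets of Mylk, and the count without overlap also includes 2 of Pdgfrb. Levels differed: 6 of the 20 lay below 5.02, the median level of all probe sets, and the tables hold no detection calls.

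**Figure D2:**
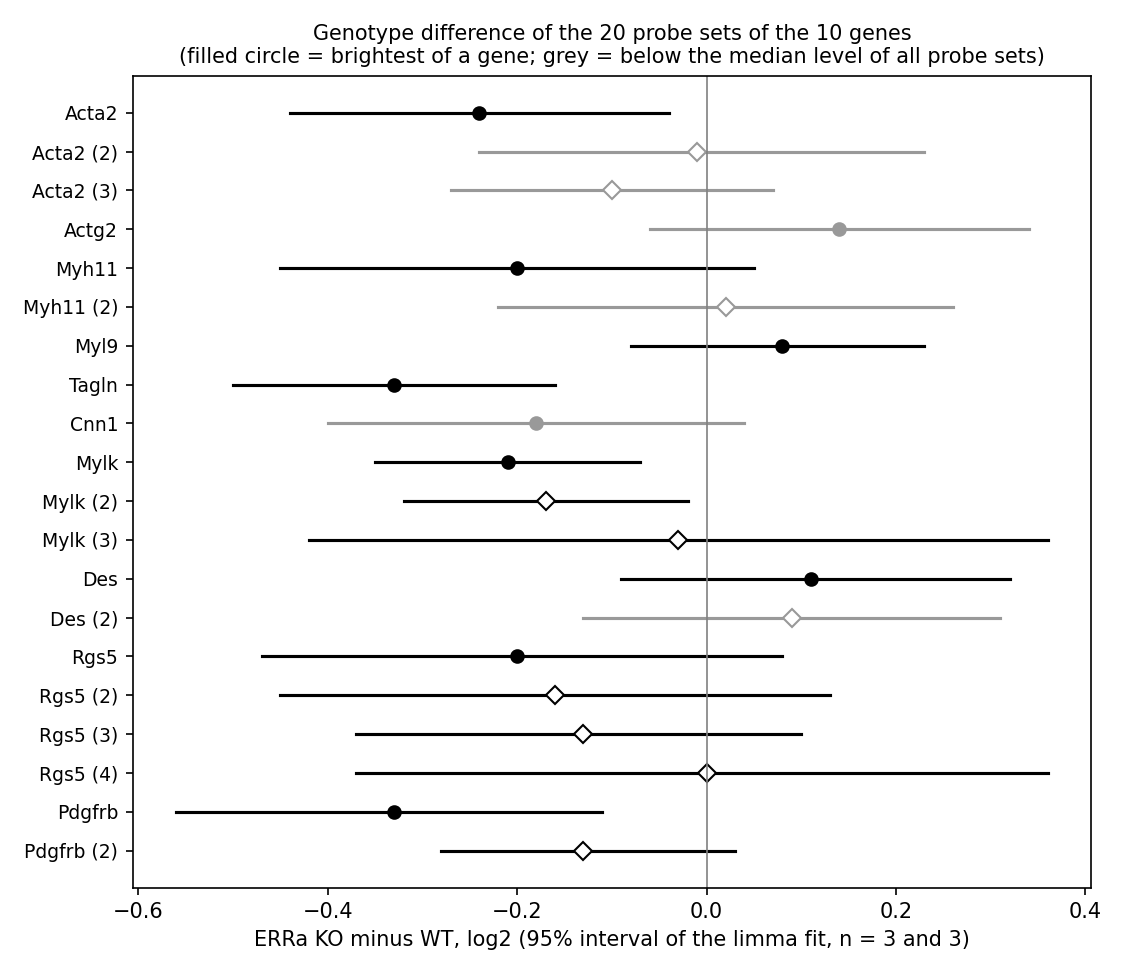
ERRa KO minus WT (log2) with the 95% interval of the limma fit for each of the 20 probe sets, grouped by gene from the brightest down. The intervals of the brightest probe sets of Acta2, Tagln, Mylk and Pdgfrb lie below 0, as does that of the second Mylk probe set (-0.17), and the rest include 0.

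Of the contractile filament genes, Acta2 encodes smooth muscle α-actin, the standard marker of arterial media. It read 9.31, 9.43 and 9.41 in WT and 9.02, 9.08 and 9.31 in ERRa KO kidneys (9.38 ± 0.07 and 9.14 ± 0.15, SD, n = 3). ERRa KO replicates 1 and 2 were below every WT array, and replicate 3 reached the lowest WT array. The difference was -0.24 (SE 0.09, 95% interval -0.44 to -0.04), 1.18-fold lower, with an unadjusted p of 0.0225 and an adjusted p of 0.305. Without ERRa KO replicate 3 it was -0.33 (adjusted p = 0.136), and it was -0.18 without ERRa KO replicate 1 (adjusted p = 0.451). This probe set, 1416454_s_at, carries the suffix Affymetrix gives to sets that can also read related transcripts, and actins are a family of near-identical genes. The other Acta2 probe sets, 1456658_at and 1444105_at, were dim, at 3.39 and 3.15 over the 6 arrays, and differed by -0.01 and -0.10.

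Actg2, smooth muscle γ-actin of visceral muscle such as gut and bladder wall, read 3.88, 3.61 and 3.61 in WT and 3.77, 3.86 and 3.90 in ERRa KO arrays. The groups overlapped, WT replicate 1 lying above 2 of the ERRa KO arrays. The difference was 0.14 (SE 0.09, 95% interval -0.06 to 0.34, adjusted p = 0.563), and the level lay far under 6.45, the median of all genes, where RMA compresses differences. It was 0.23 without WT replicate 1 (adjusted p = 0.302), and 0.10 to 0.18 when any other array was left out.

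Myh11, the heavy chain of smooth muscle myosin and the most specific marker of the lineage, read 7.09, 7.41 and 7.13 in WT and 6.88, 6.97 and 7.18 in ERRa KO kidneys. ERRa KO replicates 1 and 2 were below all WT arrays and replicate 3 was above 2 of them. The difference was -0.20 (SE 0.11, 95% interval -0.45 to 0.05, adjusted p = 0.518), and it moved with single arrays. Leaving out WT replicate 2 gave -0.10 (adjusted p = 0.762). The value was -0.14 without ERRa KO replicate 1 (adjusted p = 0.686). The largest difference was -0.28, with ERRa KO replicate 3 left out (adjusted p = 0.348). The dim second probe set of Myh11 differed by 0.02.

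Myl9, the regulatory light chain that the kinase phosphorylates, read 8.66, 8.76 and 8.61 in WT and 8.74, 8.81 and 8.71 in ERRa KO arrays. It was the 1 member above the median gene level that did not read lower. The ranges overlapped, with a difference of 0.08 (SE 0.06, 95% interval -0.07 to 0.22, adjusted p = 0.662), so a decrease in Myl9 as large as the 0.24 of Acta2 lies outside its interval. Leaving out single arrays gave 0.05 to 0.12. The difference between the members was not tested.

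The promoter windows of Acta2 and Myl9 are shown because both hold CArG-like elements. They run from 250 bases before to 50 bases after the start site in RefSeq (GRCm38.p6), Acta2 at chr19:34255324-34255623 on the minus strand and Myl9 at chr2:156775214-156775513 on the plus strand. Capitals mark matches to the CArG box, allowing 1 of its 6 core letters to be C or G, a looser form chosen after the strict search was seen.
Acta2: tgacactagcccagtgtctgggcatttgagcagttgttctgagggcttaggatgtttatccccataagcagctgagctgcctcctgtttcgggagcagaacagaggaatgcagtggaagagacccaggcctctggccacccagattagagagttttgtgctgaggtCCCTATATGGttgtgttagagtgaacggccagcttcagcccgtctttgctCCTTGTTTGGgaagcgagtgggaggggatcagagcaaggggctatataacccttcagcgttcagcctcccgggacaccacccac
Myl9: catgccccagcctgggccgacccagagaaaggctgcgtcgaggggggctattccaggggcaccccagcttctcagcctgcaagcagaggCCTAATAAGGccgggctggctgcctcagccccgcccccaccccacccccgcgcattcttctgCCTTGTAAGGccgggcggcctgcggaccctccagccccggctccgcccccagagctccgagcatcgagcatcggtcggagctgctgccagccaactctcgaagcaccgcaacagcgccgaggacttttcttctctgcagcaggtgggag
The marked elements begin 84 and 34 bases before the start of Acta2 and 161 and 99 bases before that of Myl9. Of the 4, CCTAATAAGG in Myl9 is a strict CArG box, and CCTTGTAAGG in Myl9 and CCCTATATGG and CCTTGTTTGG in Acta2 have 1 core letter that is C or G. Windows of 6 members were found. The strict box was in 1 of them (Myl9) and in 1.63% of all 32851 windows, and the looser one in 2 and in 9.98%. The element is its own reverse complement as a pattern, so 1 search covers both strands. The ERR response element TNAAGGTCA, searched on both strands, was in 0 of the 6 windows and in 1.28% of all. The windows of Cnn1, Des, Mylk and Rgs5 held neither pattern. A match or its absence describes these letters in this window only.

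Among the genes that regulate contraction, Tagln encodes transgelin (SM22α), an actin-binding protein of early and mature smooth muscle. It read 8.43, 8.54 and 8.43 in WT and 8.02, 8.22 and 8.15 in ERRa KO kidneys (8.46 ± 0.06 and 8.13 ± 0.10, SD, n = 3). All ERRa KO arrays were below all WT arrays. The difference was -0.33 (SE 0.07, 95% interval -0.49 to -0.17), 1.26-fold lower, with the smallest unadjusted p of the 10 genes, 0.00183, and an adjusted p of 0.111. Its adjusted p ranged from 0.0456 to 0.299 over the 13 alternative settings. It was under the threshold in 2 of them, when genes below the median level were left out (0.0456) and when the variance was modelled as a function of level (0.0465). Tagln has 1 probe set, so no second measurement on the array bears on it.

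Mylk, myosin light chain kinase, had the tightest WT values of the members, 8.98, 9.0 and 9.02, against 8.72, 8.83 and 8.81 in ERRa KO arrays. The genotypes did not overlap. The difference was -0.21 (SE 0.06, 95% interval -0.34 to -0.08), 1.16-fold lower, with an unadjusted p of 0.00636 and an adjusted p of 0.191. A second probe set, 1425505_at, read 8.30, 8.34 and 8.33 in WT and 8.19, 8.22 and 8.06 in ERRa KO arrays, again without overlap (-0.17, adjusted p over all probe sets = 0.413). The third, 1425504_at, varied by 0.35 (SD) among WT arrays, with WT replicate 3 the lowest of all 6 at 5.53, and differed by -0.03. The Mylk locus is known to make a long non-muscle kinase, a short smooth muscle kinase and the kinase-free telokin. Which of them each probe set reads is not given in the files.

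Cnn1, calponin, a thin-filament protein of mature smooth muscle, read 4.53, 4.55 and 4.41 in WT and 4.47, 4.35 and 4.12 in ERRa KO arrays. ERRa KO replicate 1 lay within the WT range and replicate 3 was the lowest. The difference was -0.18 (SE 0.09, 95% interval -0.40 to 0.04, adjusted p = 0.501) and was -0.08 without ERRa KO replicate 3. Its level was below the median of all genes.

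Des encodes desmin, the muscle intermediate filament protein, which is also found in mesangial cells and pericytes. It read 6.33, 6.38 and 6.23 in WT and 6.36, 6.32 and 6.61 in ERRa KO kidneys. ERRa KO replicates 1 and 2 were inside the WT range, and replicate 3 stood above it. The difference was 0.11 (SE 0.09, 95% interval -0.09 to 0.32, adjusted p = 0.648), and 0.02 without that array. Leaving out any other array gave 0.07 to 0.17. A dimmer Des probe set differed by 0.09. Desmin is shared with skeletal muscle, whose 12 markers all lay below the median gene level. Their median difference was 0.03, and 0 of 12 had an unadjusted p under 0.05 (12.4% of all genes).

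The mural signalling genes were Rgs5 and Pdgfrb. Rgs5 encodes a regulator of G-protein signalling that marks pericytes and arteriolar muscle. It read 8.95, 9.22 and 9.08 in WT and 8.66, 8.88 and 9.11 in ERRa KO arrays. Replicates 1 and 2 of the ERRa KO group were below the WT range and replicate 3 was within it. The difference was -0.20 (SE 0.12, 95% interval -0.48 to 0.08, adjusted p = 0.556). Leaving out ERRa KO replicate 3 gave -0.31 (adjusted p = 0.298), leaving out ERRa KO replicate 1 gave -0.09 (adjusted p = 0.774), and leaving out WT replicate 2 gave -0.13 (adjusted p = 0.763). The 3 dimmer Rgs5 probe sets showed the same split of the ERRa KO arrays: in each, replicates 1 and 2 read below all WT arrays and replicate 3 above all of them, and their differences were -0.16, -0.13 and 0.00. All 4 probe sets belong to 1 gene and are not separate evidence.

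Pdgfrb, the receptor through which endothelial PDGF-B recruits pericytes and mesangial cells, read 8.04, 8.10 and 8.40 in WT and 7.81, 7.87 and 7.86 in ERRa KO arrays (8.18 ± 0.19 and 7.85 ± 0.03, SD, n = 3). The ERRa KO arrays were close together and below all WT arrays, among which replicate 3 stood high. The difference was -0.33 (SE 0.10, 95% interval -0.56 to -0.11), 1.26-fold lower, with an unadjusted p of 0.00936 and an adjusted p of 0.217. It was -0.22 without WT replicate 3 (adjusted p = 0.348). The second probe set, 1417148_at, read 6.85, 6.97 and 6.95 in WT and 6.83, 6.84 and 6.72 in ERRa KO arrays, also without overlap, with a smaller difference of -0.13 (adjusted p over all probe sets = 0.562).

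The authors' deposited table gives unadjusted p-values of 0.00430 and 0.0296 for 2 Mylk probe sets, 0.00890 for Tagln and 0.0431 for the brighter Pdgfrb probe set. For the bright Acta2 probe set the authors' deposited table gives 0.0633.

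The arrays of a genotype did not move as 1. ERRa KO replicate 1 was the lowest of the 6 arrays for 6 of the 10 genes, and the median of the 10 there was -0.30 relative to the WT mean. It was -0.18 in ERRa KO replicate 2 and -0.05 in ERRa KO replicate 3, the array with the liver transcripts. The WT arrays had medians of -0.03, 0.06 and -0.05, and WT replicate 2 was the highest of all arrays for 5 of the 10 genes. That array was also highest for 9 of the 12 endothelial markers described below, and for 0 of the 12 liver markers. In ERRa KO replicate 3, Tagln, Mylk and Pdgfrb were as low as in replicate 2, whereas Acta2, Myh11 and Rgs5 were nearer to WT and Des was above it. Without that array the median was -0.25 and 6 of the 10 genes were lower at an unadjusted p under 0.05, where 12.4% of all genes passed and 5.47% were lower. The 2 added were Myh11 (limma's unadjusted p = 0.0335, adjusted p = 0.348) and Rgs5 (0.0213 and 0.298). None was called (0.214% of all genes). Leaving out each of the other arrays in turn gave 3 to 5 genes at that p. Tagln, Mylk and Pdgfrb were among them each time, whereas Acta2 dropped out without WT replicate 2 or 3 or ERRa KO replicate 1 or 2. Cnn1 (lower) came in without ERRa KO replicate 1 and Actg2 (higher) without WT replicate 1, and 7 of the 10 genes read lower each time. The part of the liver transcripts in these values was not tested.

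**Figure D3:**
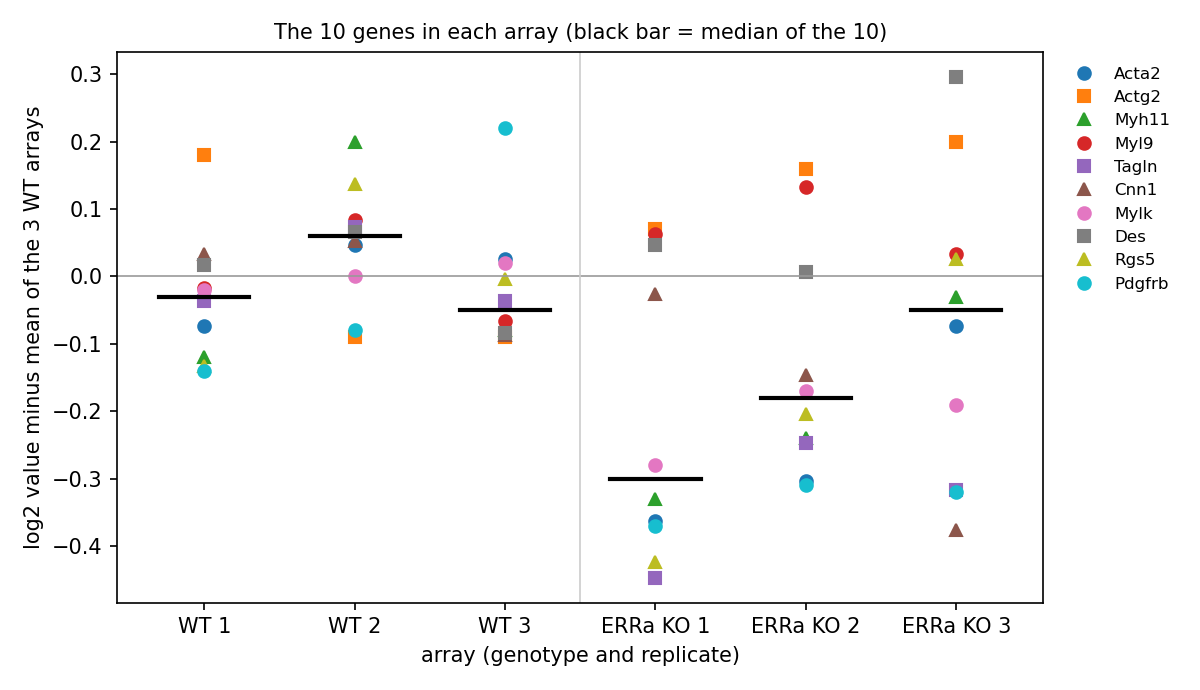
Log2 value minus the mean of the 3 WT arrays for each of the 10 genes (points) and their median (bar) in each array. The medians are -0.30, -0.18 and -0.05 in ERRa KO replicates 1, 2 and 3, and between -0.05 and 0.06 in the WT arrays.

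Other genes of the contractile machinery had a median closer to 0. Of 20 further smooth muscle contractile genes 12 read lower and 8 read higher, the median was -0.04, and 0 were called. Of the 20, 10 lay below the median gene level, beside 3 of the 10 members. All ERRa KO arrays lay below all WT arrays in 3 and above them in 1 (9.56% and 9.11% of all genes). At an unadjusted p under 0.05, 2 were lower and 1 higher (6.2% and 6.22% of all genes). The lower ones were genes of actin anchorage at adhesions that many cell types use: Vcl, vinculin (-0.22, adjusted p = 0.194), and Actn1, α-actinin (-0.21, adjusted p = 0.242). The higher one was the amine oxidase gene Aoc3 (0.16, adjusted p = 0.317). Smooth muscle genes of this list such as Smtn (smoothelin, -0.06), Lmod1 (leiomodin, 0.09), Tpm2 (β-tropomyosin, -0.10), Synpo2 (-0.13) and Ppp1r14a, an inhibitor of myosin phosphatase (0.21), chosen here after their values were seen, had unadjusted p-values between 0.214 and 0.439. Of these, Lmod1, Synpo2 and Ppp1r14a lay below the median gene level. Besides Vcl and Actn1, the gene with all ERRa KO arrays below all WT arrays was Ppp1r12a (-0.11, adjusted p = 0.538).

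The regulators of the contractile program showed little difference. Of 18 measured genes 9 read lower and the other 9 higher, the median was 0.01, and 0 were called. Of the 18, 8 lay below the median gene level. Only Klf4, a factor that represses contractile genes in dedifferentiating muscle, had an unadjusted p under 0.05 (12.4% of all genes). It read 6.95, 6.58 and 6.73 in WT and 6.48, 6.56 and 6.34 in ERRa KO kidneys (-0.30, adjusted p = 0.305), with no overlap. Srf, serum response factor, differed by 0.10 (adjusted p = 0.544) and Myocd, myocardin, by -0.12 at a dim level (adjusted p = 0.543).

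The list of other pericyte and mesangial genes, some of them shared with other cells, did not follow Pdgfrb and Rgs5 as a group. It holds the endothelial ligand gene Pdgfb, and Pdgfra, which is counted again among the fibroblast markers. It also holds Vtn, which read 7.34 in ERRa KO replicate 3, the array with the liver transcripts, and 3.68 and 3.72 in replicates 1 and 2. Of 20 measured genes 11 read higher and 9 lower, with a median of 0.03, and 0 were called. Of the 20, 9 lay below the median gene level. At an unadjusted p under 0.05, 3 were higher (6.22% of all genes) and 1 lower (6.2%). Cspg4, the NG2 proteoglycan of pericytes, read 7.05, 6.96 and 6.86 in WT and 7.18, 7.17 and 7.32 in ERRa KO arrays (0.27, adjusted p = 0.183). Abcc9, the regulatory subunit of the vascular ATP-sensitive potassium channel, read 7.01, 6.86 and 7.02 in WT and 7.17, 7.34 and 7.18 in ERRa KO arrays (0.27, adjusted p = 0.204). For both, all ERRa KO arrays were above all WT arrays. The third was Angpt1, the angiopoietin ligand of the endothelial receptor Tie2 (0.32, adjusted p = 0.289), and the lower one was the integrin gene Itga1 (-0.19, adjusted p = 0.327). Notch3, the receptor that arterial muscle needs to mature, was not past that mark at -0.19 (adjusted p = 0.415). The difference between these genes and the 10 was not tested.

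Among markers of neighbouring cells, 2 fibroblast genes were called. Of 15 measured fibroblast markers all read lower, with a median of -0.20. At an unadjusted p under 0.05, 8 were lower (6.2% of all genes), and 2 were called lower (0.225% of all genes). The called genes were the fibrillar collagen genes Col3a1 (-1.19, adjusted p = 0.0156) and Col1a2 (-0.62, adjusted p = 0.0213), which mural cells can also make. The summed level of the 15, on the linear scale, ran from 2671 to 3111 in WT and from 1759 to 2006 in ERRa KO arrays. That of the 10 contractile and pericyte genes ran from 2899 to 3164 in WT and from 2497 to 2847 in ERRa KO arrays. Neither pair of ranges overlapped. The same held for the 20 further contractile genes, lower in ERRa KO arrays (3482 to 3599 in WT, 3343 to 3431 in ERRa KO). It also held for the podocyte markers, higher in ERRa KO arrays (1691 to 1785 in WT, 1803 to 2022 in ERRa KO). The ranges of every other list overlapped, such as the endothelial markers (4285 to 4676 in WT, 4089 to 4362 in ERRa KO). For single genes, all ERRa KO arrays lay below all WT arrays in 9.56% and above them in 9.11% of all genes. The separation of the sums was not tested. Such a sum weighs bright genes most, and Col3a1 was the brightest fibroblast marker (mean 9.82 in WT, 8.64 in ERRa KO). Acta2 was the brightest of the 10 genes (mean 9.38 in WT, 9.14 in ERRa KO). ERRa KO replicate 1 held the lowest reading for 10 of the 15 fibroblast markers and for 6 of the 10 genes. It also did for 7 of 12 liver and 5 of 12 endothelial markers, but for 1 of 18 regulators and 0 of 6 podocyte markers. The share over all genes was not computed. The part of the fibroblast shift in that of the 10 genes was not tested.

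Of 12 endothelial markers 8 read lower, with a median of -0.07, and 0 were called. Tek, the Tie2 receptor, differed by -0.22 (adjusted p = 0.256) and Plvap, of fenestrated vessels, by -0.17 (adjusted p = 0.308). All 6 measured podocyte markers read higher, with a median of 0.18 and 0 called, and the smallest p-values were those of Cdkn1c (0.37, adjusted p = 0.116) and Synpo (0.20, adjusted p = 0.35). Of 7 urothelium markers, which lie beside the muscle coat of the renal pelvis, 6 read higher with a median of 0.12 and 0 called, the smallest p-values being those of Upk3b (0.31, adjusted p = 0.197) and Upk1a (0.24, adjusted p = 0.38). The lists of fat (7 measured, median 0.10) and adrenal markers (9 measured, median 0.04) had 0 called. Their lowest p-values belonged to Ucp1 (1.18, adjusted p = 0.32) and Lep (0.22, adjusted p = 0.382) in fat, and to Chga (0.25, adjusted p = 0.148) and Cyp21a1 (0.16, adjusted p = 0.502) in adrenal. Of 10 kidney tubule markers 6 read lower and 0 were called, with Umod at -0.29 (adjusted p = 0.159) and Calb1 at -0.55 (adjusted p = 0.162), and all 10 lay above the median gene level. In the skeletal muscle list Tnni2 (0.11, adjusted p = 0.543) and Myh4 (0.15, adjusted p = 0.692) had the smallest p. Of the liver list those were Apoc3 (0.78, adjusted p = 0.168) and Cyp2e1 (0.10, adjusted p = 0.486), with 0 of 12 called.

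Without ERRa KO replicate 3 several of these lists read differently. Over all 18193 genes without that array, 996 were lower and 1255 higher at an unadjusted p under 0.05, and 39 were called. The liver median went from 0.79 to -0.04, the urothelium median from 0.12 to 0.06 with 1 gene in place of 2 at an unadjusted p under 0.05, the fat median from 0.10 to 0.16 with 3 genes in place of 2, and the adrenal median from 0.04 to 0.01. Kidney tubule markers read lower for 9 of 10 in place of 6, with a median of -0.12. The other pericyte and mesangial genes had a median of 0.00, with 4 higher and 2 lower at that p. The further contractile genes had a median of -0.05 with 2 higher and 2 lower, and the regulators a median of 0.03. Of the fibroblast markers 14 of 15 read lower, with a median of -0.21 and 2 called. The endothelial median was -0.06, the podocyte median 0.21 with 1 gene in place of 2 at that p, and the skeletal muscle median 0.04.

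**Figure D4:**
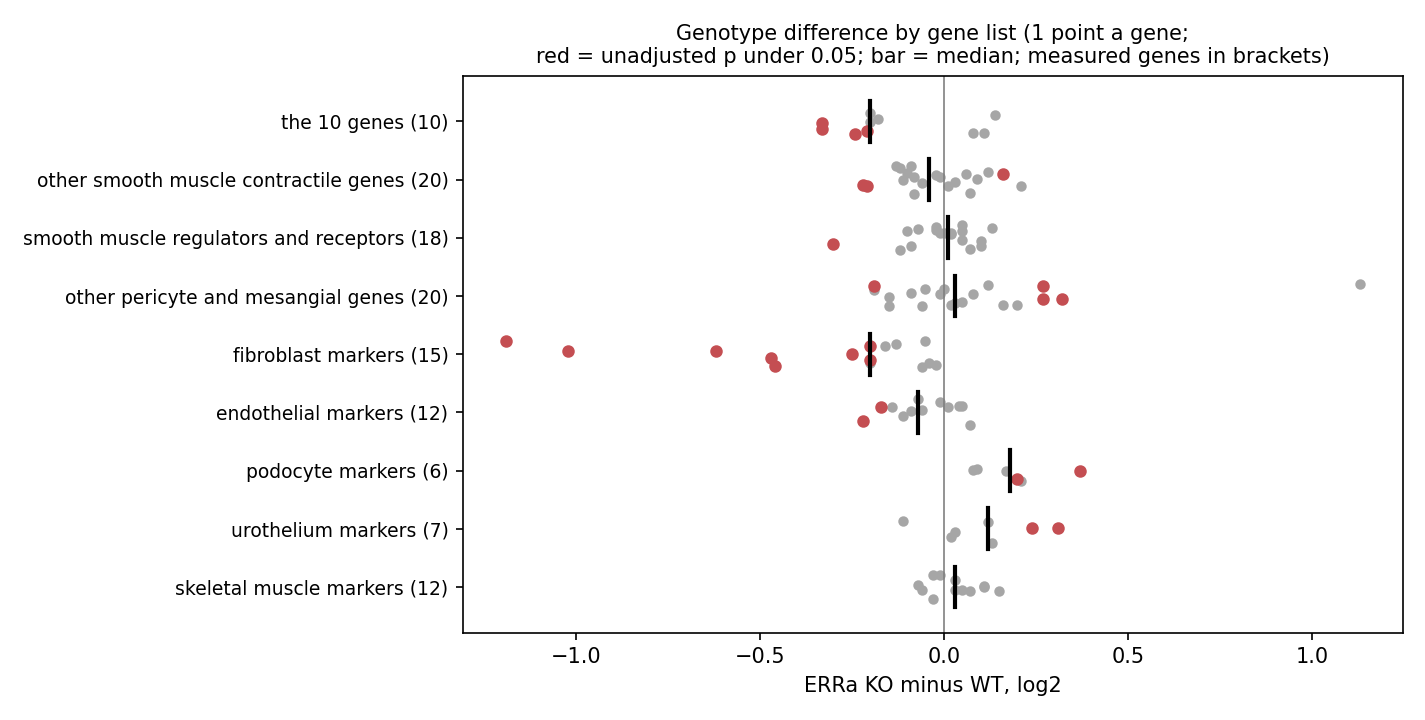
ERRa KO minus WT (log2) of each gene in the 10-gene list and in 8 further lists, with the median as a bar and genes at an unadjusted p under 0.05 in red. The 10 genes and the fibroblast markers share a median of -0.20, and the 3 other smooth muscle and pericyte lists have medians of -0.04, 0.01 and 0.03. The grey point at 1.13 is Vtn, vitronectin, which liver also makes (adjusted p = 0.652).

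The genes whose centred values over the 6 arrays lay nearest to the mean profile of the 10 (0.04, 0.12 and 0.05 in WT and -0.14, -0.06 and -0.01 in ERRa KO arrays) were Ostc, Mtarc1, Sesn2, Glis2 and Pdzd9. Their root mean square distances were 0.017 to 0.021, the smallest among 18183 genes and so small by selection. The nearest of the 10 genes to that profile was Mylk at 0.050 and the farthest Actg2 at 0.174. None of the 5 genes was called.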

How the data were processed

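Total RNA of 6 kidney samples was labelled as biotin cRNA and hybridised to Affymetrix mouse arrays. The authors deposited log2 expression values from RMA (per the submitters' processing notes), with settings not stated in the labels. The authors' deposited table adds a log2 fold change and an unadjusted p-value per probe set, with the test not stated per the file headers. Of 45101 probe sets 64 controls were left out. GEO's platform annotation names 1 gene for 34945 of the remaining 45037, several for 932 and none for 9160. Only the first were used for genes. For each gene the brightest probe set, by its mean over the 6 arrays, stood for the gene. Linear models with genotype alone and moderated variances (two-sided tests, limma 3.58.1, run under R 4.3.3) were fitted to all genes and, separately, to all probe sets, without any filter on level, after being tested on simulated data. Precision is limited by having 3 arrays per genotype.

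The 10 members and all gene lists were chosen with earlier results of these data known. Named are the 10 members, Esrra, from each other list the called genes or otherwise up to 2 with the smallest p, and the 5 genes nearest in profile. Others were named after their values were seen, among them Aoc3, Angpt1, Itga1, Notch3, Srf and those so marked. Of the listed genes, 10 have no probe set naming them alone and are not analysed here. Promoter sequences are RefSeq's (GRCm38.p6). Any 2 arrays shared at most 131 identical values, and all were counted as separate.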

Additional observations from a re-analysis of the deposited data

How the results depend on the processing

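Each member's difference was recomputed under 13 alternatives, giving 127 values, since Actg2, Cnn1 and Des drop out above the median level. No value changed direction and 125 stayed on the same side of the threshold. The exceptions were Tagln, at -0.33 each time, above the median level and with an intensity trend, which put the count of called members at 1 in each. The members' median was -0.12 when all probe sets of a gene were averaged. With that averaging Acta2 (-0.12, limma's unadjusted p = 0.101) and Mylk (-0.14, 0.0932) no longer had an unadjusted p under 0.05. Tagln (-0.33, 0.00134) and Pdgfrb (-0.23, 0.01) still did. Under the exchanged column heads of the authors' table (an alternative chosen after seeing the data) the members' median is 0.20, the main value with its sign turned. Those heads would place the low Esrra values (6.66, 6.51 and 6.41) in WT, and the authors' own fold change column does not follow them. Leaving out 1 array gave medians from -0.25 to -0.14 and 0 called members. Over all genes, 90 calls became 10 to 39 when 1 array was left out (with WT replicate 1, 2 or 3 left out 10, 13 and 28, with ERRa KO replicate 1, 2 or 3 left out 25, 12 and 39, the last of them 31 higher and 8 lower), 220 above the median level and 309 with an intensity trend. Over probe sets, 50 became 7 to 35 when 1 array was left out, 143 above the median level, 364 with an intensity trend, 99 with each array centred on its median and 92 with array weights. Quantile normalization, applied again, gave 69 genes, 37 higher and 32 lower. The causes of these moves were not tested.

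With the replicate number as a block, 18 genes, 3 probe sets and 0 members were called. Deviations of same-numbered arrays correlated at -0.04, 0.00 and -0.08, and WT replicate 3 correlated best with ERRa KO replicate 1 (0.10). With 3 arrays per genotype these correlations cannot decide whether the numbers pair the arrays, and the labels do not say. Array brightness over background cannot be read from these summarised values, which limits Actg2, Cnn1 and the dim probe sets most.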
